A study of Mus musculus with 13 samples.

Results

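miR-375 and miR-7 are known above all from hormone-secreting cells, and their hairpins are represented by 7 of the 1514 pairs of a hairpin and a mature miRNA listed in small RNA libraries of mouse brain. The pairs were chosen by name, as every row whose hairpin was mmu-mir-375, mmu-mir-7a-1, mmu-mir-7a-2 or mmu-mir-7b (mmu- is left out below), which makes 4 of 903 hairpins and 6 of 1384 mature miRNAs. The choice was made with the levels of these miRNAs in the same libraries known. Their levels and differences are therefore given as a description, without p-values.

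The 13 libraries came from the prefrontal cortex (PFC) of 3 FVB/N and 4 TgR mice and from the hippocampus of 3 FVB/N and 3 TgR mice. TgR mice carry a transgene for the human readthrough variant of acetylcholinesterase (AChE-R), expressed constitutively from a minimal cytomegalovirus promoter-enhancer, on the FVB/N strain, and the controls are wild-type FVB/N mice. The age and sex of the sequenced mice are not given in the sources used here, nor is it stated whether both regions came from the same animals. TgR mice are described as varying in behavior, and brains were taken without regard to that variation. Each library was made from 300 ng of total RNA with integrity numbers of 8.6 to 9.3, and held 8769851 to 18385985 counts. Values are in CPM, which relate a count to the size of its library, and a floor of 3 counts lay between 0.163 and 0.342 CPM. The brain miRNAs miR-9-5p, miR-124-3p, miR-128-3p and miR-138-5p together reached 154062 to 260703 CPM, and none was at 0 in any library. Levels below are CPM on 1 scale over all libraries, set by trimmed mean of M-values (TMM) factors.

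A miRNA is cut from a hairpin whose 2 arms, 5p and 3p, can each give a mature strand, and the seed near its 5′ end does most of the pairing with target mRNAs. miR-375 is abundant in pancreatic islets and the pituitary and restrains insulin secretion from beta cells. miR-7 is abundant in the endocrine pancreas, hypothalamus and pituitary and is also found in neurons, where the circular RNA Cdr1as binds it, the long noncoding RNA Cyrano promotes its decay, and miR-671 directs the cutting of Cdr1as.

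The mature sequences are shown because the 2 abundant miR-7 strands share a seed, while their 3p arms identify the hairpin of origin. They are the RefSeq sequences on GRCm38.p6, 5′ to 3′, with the seed (bases 2 to 8) in capitals.
miR-375-5p: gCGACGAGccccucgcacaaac
miR-7a-5p: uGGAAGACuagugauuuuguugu
miR-7b-5p: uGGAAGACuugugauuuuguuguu
miR-7a-1-3p: cAACAAAUcacagucugccaua
miR-7a-2-3p: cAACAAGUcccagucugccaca
miR-7b-3p: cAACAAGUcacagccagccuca
Of the 2 arms of mir-375, miR-375-3p was listed in the libraries and miR-375-5p in none. The sequence of miR-375-3p is not shown, because the reference used had no mature entry for it. The seed CGACGAG above belongs to miR-375-5p.

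miR-7a-5p and miR-7b-5p carried the seed GGAAGAC and were identical at 22 of 23 compared positions, the exception being A10U, counted from the 5′ end with the miR-7a base first. The 3p arms differed more. miR-7a-1-3p and miR-7a-2-3p were identical at 19 of 22 positions and differed by A7G, A10C and U21C. The first of these lies in the seed, so that miR-7a-2-3p shared its seed AACAAGU with miR-7b-3p and not with miR-7a-1-3p. Because mir-7a-1 and mir-7a-2 give the same 5p strand, miR-7a-5p was listed at both hairpins, with counts 0.181 to 0.283% higher at mir-7a-1 in the 13 libraries. These are the same reads, and 1 row was used.

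The 4 hairpins lie on 4 chromosomes (GRCm38, GENCODE M21). Mir375 is intergenic at chr1:74900658-74900721 on the minus strand, between Cryba2, 7515 bases away, and Cfap65, 1350 bases away. Mir7-1 lies at chr13:58392779-58392886 on the minus strand, in an intron of every annotated transcript of Hnrnpk and on the same strand. Hnrnpk encodes a widely expressed RNA-binding protein. Mir7-2 is intergenic at chr7:78888277-78888373 on the plus strand, 7481 bases before Aen. Mir7b is intergenic at chr17:56242988-56243098 on the plus strand, 183 bases after the end of the long noncoding RNA AC026385.1.

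The abundant products were the miR-7 5p strands. By mean CPM among 1384 mature miRNAs, miR-7a-5p ranked 10 in FVB/N hippocampus, 16 in TgR hippocampus, 20 in FVB/N PFC and 19 in TgR PFC, and miR-7b-5p ranked between 35 and 46. miR-375-3p was far less abundant, with ranks from 252 to 340 and 98 to 716 counts per library. miR-7a-1-3p ranked between 212 and 234, miR-7a-2-3p between 264 and 363, and miR-7b-3p between 439 and 449.

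**Figure D1:**
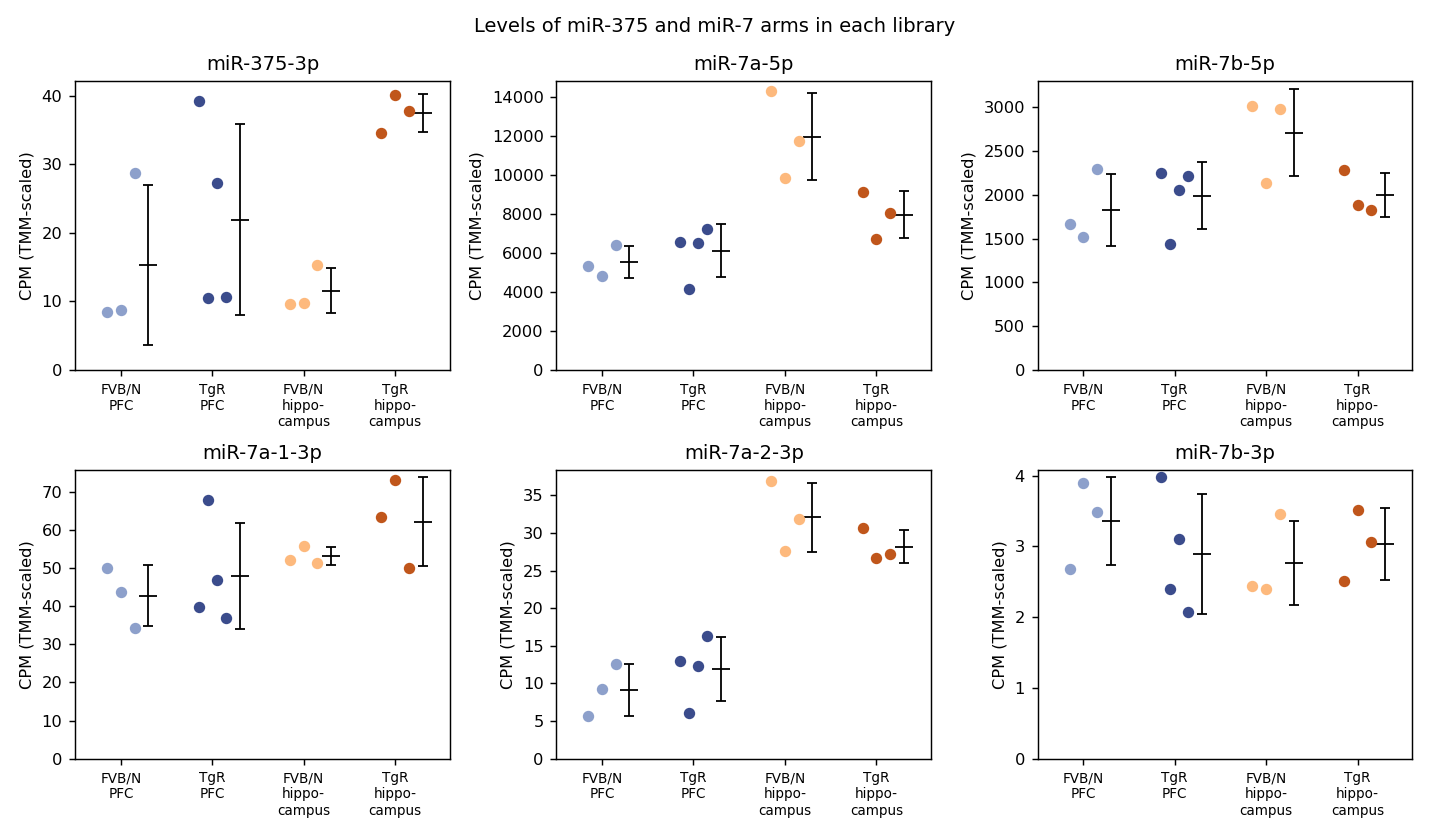
CPM (y axes, linear, from 0) of the 6 detected arms in each of the 13 libraries, grouped by genotype and region (x axes), with the mean and SD of each group beside the points. miR-375-3p in TgR hippocampus lies at 34.5 to 40.1 CPM, above all 3 FVB/N hippocampal libraries, while the PFC points of both genotypes are spread from 8.38 to 39.2 CPM.

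miR-375-3p was higher in the hippocampus of TgR than of FVB/N mice. It reached 34.5, 40.1 and 37.8 CPM in the TgR hippocampal libraries (37.5 ± 2.83, SD, n = 3) against 9.55, 9.71 and 15.3 CPM in the FVB/N ones (11.5 ± 3.29, SD, n = 3). Every TgR library lay above every FVB/N library, and the fitted log2 difference was 1.71 (SE 0.21), a 3.27-fold higher level. Leaving out each of the 6 hippocampal libraries in turn gave log2 differences of 1.54 to 1.92. These are bulk tissue samples, in which a change in the number of cells of a type and a change of RNA per cell cannot be told apart.

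In the PFC the same miRNA did not separate the genotypes. FVB/N libraries had 8.38, 8.68 and 28.7 CPM (15.3 ± 11.7, SD, n = 3), and TgR libraries had 39.2, 10.5, 27.2 and 10.6 CPM (21.9 ± 13.9, SD, n = 4). One FVB/N and 2 TgR libraries were high and the other 4 were low, so the groups overlapped. The log2 difference of 0.48 (SE 0.58) rested on single libraries. It was 0.082 without TgR PFC replicate 1 and 1.31 without FVB/N PFC replicate 3. The within-group SD of log2 miR-375-3p in the PFC was 0.98, against a median of 0.26 over 360 mature miRNAs, of which 2 had a larger SD. In the hippocampus its within-group SD was 0.28, against a median of 0.20, and 87 of 360 miRNAs had a larger one.

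Ordered by mean, miR-375-3p was highest in TgR hippocampus, followed by TgR PFC, FVB/N PFC and FVB/N hippocampus. Each neighboring pair of groups in this order overlapped. The hippocampus minus PFC difference was -0.41 (SE 0.52) on the log2 scale in FVB/N mice and 0.77 (SE 0.47) in TgR mice. The former turned to 0.42 without FVB/N PFC replicate 3. The genotype difference in hippocampus exceeded that in PFC by 1.18 (SE 0.70) on the log2 scale, and this value ranged from 0.39 without FVB/N PFC replicate 3 to 1.62 without TgR PFC replicate 1.

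miR-7a-5p, the most abundant of the arms, was highest in FVB/N hippocampus. It had 14301, 9842 and 11722 CPM there (11955 ± 2239, SD, n = 3) and 9134, 6730.1 and 8037 CPM in TgR hippocampus (7967 ± 1204, SD, n = 3). The 2 groups did not overlap, and the log2 difference of TgR from FVB/N was -0.57 (SE 0.17). In FVB/N PFC it had 5351, 4817 and 6406 CPM (5525 ± 809, SD, n = 3), and in TgR PFC 6544, 4137, 6533 and 7221 CPM (6109 ± 1353, SD, n = 4). The PFC groups overlapped, with a log2 difference of 0.11 (SE 0.17).

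Between regions, miR-7a-5p was 2.16-fold higher in hippocampus than in PFC of FVB/N mice, a log2 difference of 1.11 (SE 0.20), and every hippocampal library lay above every PFC library. In TgR mice the regions overlapped, and the log2 difference was 0.38 (SE 0.19). The genotype difference in hippocampus minus that in PFC was -0.73 (SE 0.27) on the log2 scale. The genotype comparison in hippocampus and the region comparison in FVB/N mice share the 3 FVB/N hippocampal libraries.

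miR-7b-5p, which differs from miR-7a-5p by 1 internal base, showed smaller differences. It had 3015, 2137 and 2987 CPM in FVB/N hippocampus (2713 ± 499, SD, n = 3) and 2284, 1884 and 1830.3 CPM in TgR hippocampus (1999 ± 248, SD, n = 3). One TgR library exceeded the lowest FVB/N library, and the log2 difference was -0.43 (SE 0.16). Its PFC levels of 1519.8 to 2294 CPM in FVB/N and 1439 to 2255 CPM in TgR mice overlapped, with a log2 difference of 0.092 (SE 0.18). Hippocampus exceeded PFC by 0.57 (SE 0.20) on the log2 scale in FVB/N mice, with overlapping groups. In TgR mice the difference was 0.0050 (SE 0.19), and -0.12 without TgR PFC replicate 2. Without FVB/N PFC replicate 2 the genotype difference in PFC was -0.028.

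Both strands would pair with targets through the same seed, so their CPM were also summed. The sum was 14668 ± 2669 CPM in FVB/N hippocampus (SD, n = 3), 9967 ± 1404 in TgR hippocampus (SD, n = 3), 7353 ± 1216 in FVB/N PFC (SD, n = 3) and 8101 ± 1722 in TgR PFC (SD, n = 4). The hippocampal ranges, 11979 to 17316 CPM in FVB/N and 8614 to 11418 CPM in TgR mice, did not overlap, and the PFC ranges did. miR-7b-5p gave 17.4 to 20.3% of these reads in FVB/N hippocampus and 18.5 to 21.9% in TgR hippocampus. In the PFC its share was 23.8 to 26.4% in FVB/N and 23.5 to 25.8% in TgR mice. The share thus differed between regions without overlap, while the genotypes overlapped in each region.

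**Figure D2:**
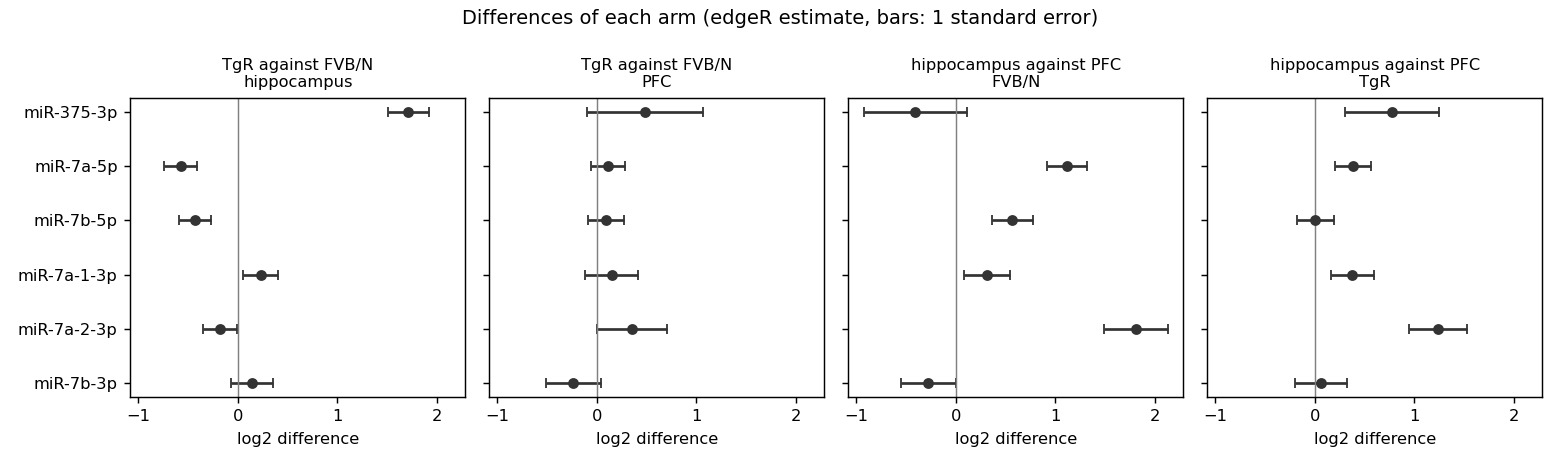
Fitted log2 differences (x axes) of the 6 arms (y axis) in the 2 genotype and the 2 region comparisons, with bars of 1 standard error on each side. miR-375-3p stands at 1.71 in the hippocampal genotype comparison and miR-7a-2-3p at 1.81 in the FVB/N region comparison, whereas the 5p strands of miR-7 lie below 0 in the former and above 0 in the latter.

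The 3p arms separate the 2 miR-7a hairpins, which the shared 5p strand cannot. miR-7a-2-3p, from the intergenic mir-7a-2, was higher in hippocampus than in PFC. It had 36.8, 27.6 and 31.8 CPM in FVB/N hippocampus (32.1 ± 4.61, SD, n = 3) and 5.71, 9.21 and 12.6 CPM in FVB/N PFC (9.17 ± 3.44, SD, n = 3). TgR hippocampus had 30.7, 26.7 and 27.1 CPM (28.2 ± 2.18, SD, n = 3) and TgR PFC had 12.9, 6.06, 12.3 and 16.3 CPM (11.9 ± 4.27, SD, n = 4). Every hippocampal library lay above every PFC library in both genotypes. The log2 difference was 1.81 (SE 0.32) in FVB/N mice, 3.51-fold, and 1.23 (SE 0.29) in TgR mice. Between genotypes it was -0.18 (SE 0.17) in hippocampus and 0.35 (SE 0.35) in PFC, with overlapping groups.

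miR-7a-1-3p, from the hairpin in Hnrnpk, differed less between regions. It had 52.1, 55.8 and 51.4 CPM in FVB/N hippocampus (53.1 ± 2.38, SD, n = 3) and 50.1, 43.8 and 34.2 CPM in FVB/N PFC (42.7 ± 7.99, SD, n = 3), which did not overlap. In TgR mice it had 63.4, 73.1 and 50.0 CPM in hippocampus (62.2 ± 11.6, SD, n = 3) and 39.8, 68.0, 47.0 and 36.9 CPM in PFC (47.9 ± 14.0, SD, n = 4), which overlapped. The region differences were 0.31 (SE 0.23) in FVB/N and 0.38 (SE 0.22) in TgR mice on the log2 scale. The genotype differences were 0.23 (SE 0.17) in hippocampus and 0.15 (SE 0.27) in PFC, and the latter was -0.11 without TgR PFC replicate 2. In TgR hippocampus, then, the shared 5p strand had a lower mean than in FVB/N mice and miR-7a-1-3p a higher one, the latter within the spread between libraries. The 3p strands made up 0.951 to 1.46% of miR-7a reads there and 0.618 to 0.841% in FVB/N hippocampus. In the PFC they made up 0.725 to 1.09% in FVB/N and 0.732 to 1.76% in TgR mice, which overlapped.

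As a share of all miR-7 3p reads, miR-7a-2-3p gave 36.4 ± 4.06% in FVB/N hippocampus (SD, n = 3) and 30.5 ± 4.16% in TgR hippocampus (SD, n = 3). In the PFC it gave 17.0 ± 7.67% in FVB/N (SD, n = 3) and 20.0 ± 9.0% in TgR mice (SD, n = 4). The lowest share was 7.92% (95% Wilson interval 6.18 to 10.1%) in TgR PFC replicate 2, and the highest was 40.3% (37.6 to 43.1%) in FVB/N hippocampus replicate 1. These intervals take each read as independent and leave out the spread between libraries. The reads carry no molecular identifiers, so copies of the same molecule are counted separately and the intervals can be too narrow. In FVB/N mice the hippocampal and PFC shares did not overlap. In TgR mice the 25.8 to 33.8% of hippocampus overlapped the 7.92 to 29.4% of PFC. miR-7b-3p was the rarest arm, with 23 to 58 counts and 2.07 to 3.98 CPM in a library, and its group means lay between 2.77 and 3.35 CPM. By group mean, 3p strands made up 0.103 to 0.189% of miR-7b reads and 0.721 to 1.14% of miR-7a reads. Shares of 3p reads therefore do not give the relative output of the hairpins.

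**Figure D3:**
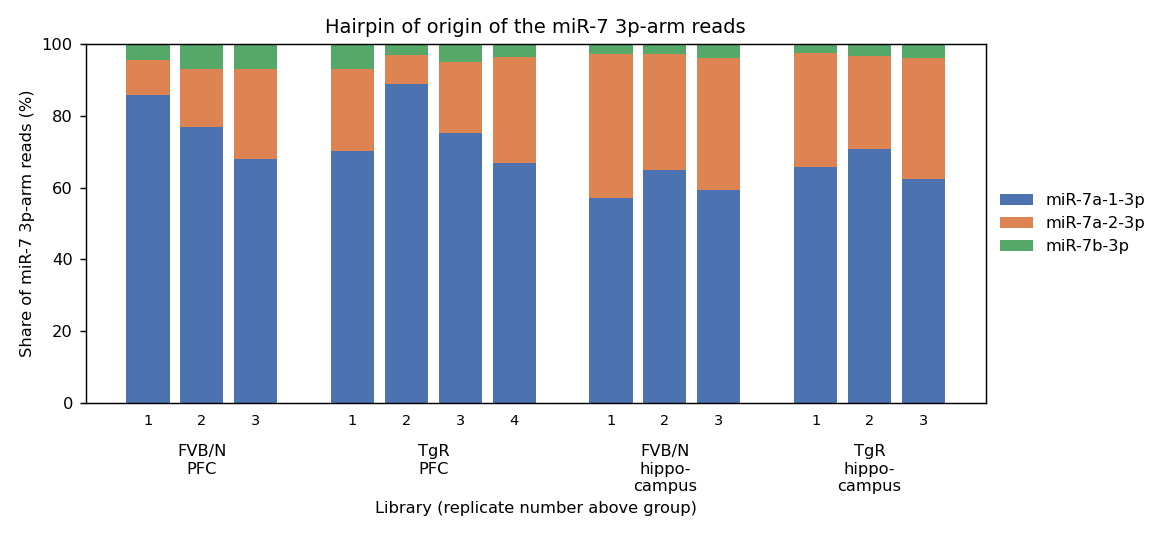
Share of miR-7 3p-arm reads (y axis, percent, stacked to 100) given by each of the 3 hairpins in each library (x axis, replicate number above group). These shares of 3p reads are not the relative output of the hairpins. The orange miR-7a-2-3p segment averages 36.4% in FVB/N hippocampus and 17.0% in FVB/N PFC, and miR-7a-1-3p is the largest segment in all 13 libraries.

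All 6 detected arms passed the filter on low counts in each fit. In the edgeR quasi-likelihood test with Benjamini-Hochberg adjustment over all pairs, at an adjusted p under 0.05, 1 of 6 arms (miR-375-3p) was called between genotypes in hippocampus, where 3.44% of 726 pairs were called. There 3 arms had an unadjusted p under 0.05, against 17.5% of pairs. DESeq2 called 2 arms there (miR-375-3p and miR-7a-5p), against 7.75% of pairs. In the PFC 0 of 6 arms were called, against 0.137% of 730 pairs, with 0 arms at an unadjusted p under 0.05, against 2.6% of pairs, and 0 called by DESeq2, against 0.137%. Between regions 2 of 6 arms (miR-7a-5p and miR-7a-2-3p) were called in FVB/N mice, where 5.33% of 751 pairs were called, and 1 of 6 (miR-7a-2-3p) in TgR mice, where 7.99% were called. At an unadjusted p under 0.05 these counts were 3 arms in FVB/N mice, against 20.2% of pairs, and 1 in TgR mice, against 20.1%. By DESeq2 they were 2 arms, against 17.1% of pairs, and 1 arm, against 10.9%. For the difference between regions in the effect of genotype, 0 of 6 arms were called by edgeR, against 0.533% of pairs, with 1 arm at an unadjusted p under 0.05, against 8.12% of pairs, and 0 called by DESeq2, against 3.47%. DESeq2 shares are of the pairs to which it gave an adjusted p. The arms whose groups did not overlap were 2 of 6 between genotypes in hippocampus, where 24.7% of pairs did not overlap, and 0 of 6 in PFC, where 5.07% did not. They were 3 of 6 between regions in FVB/N mice, against 22.4% of pairs, and 1 of 6 in TgR mice, against 22.5%. Since the arms were chosen with these levels known, nothing is read from these counts. The call of miR-375-3p in hippocampus was lost when all 13 libraries entered 1 fit.

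Among other miRNAs known from islet and neuroendocrine cells, none was called higher with miR-375-3p in TgR hippocampus by edgeR. This list and the marker lists below were chosen with earlier results of these data known, so their calls and p-values are no independent test. Of the 14 on the islet list, 13 were tested between genotypes in hippocampus, of which 0 were higher and 2 lower in TgR mice, against 1.93% of all pairs called higher and 1.52% called lower. At an unadjusted p under 0.05, 2 were higher and 5 lower, against 17.5% of all pairs in either direction, and DESeq2 called 1 higher and 3 lower, against 7.75%. The list had a median log2 difference of -0.23 against -0.0013 over all mature miRNAs. Both that edgeR called lower belong to the miR-183 cluster, known from sensory cells and also expressed in islets. miR-182-5p had 16.0, 25.3 and 39.5 CPM as the lowest, median and highest FVB/N values and 7.02 to 9.89 CPM in TgR hippocampus, a log2 difference of -1.61 (SE 0.32, adjusted p = 0.045, edgeR). miR-183-5p had 14.9, 31.2 and 45.9 CPM against 8.45 to 10.2 CPM, a log2 difference of -1.69 (SE 0.36, adjusted p = 0.045, edgeR). Neither group overlapped the other for these 2 miRNAs. miR-96-5p, of the same cluster, had a log2 difference of -1.53 (SE 0.37, adjusted p = 0.065, edgeR), also without overlap, and was not called. The number of list members called was 0 without FVB/N hippocampus replicate 3 and 3 without FVB/N hippocampus replicate 1.

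In the PFC 0 of 14 were called between genotypes by edgeR, against 0.137% of all pairs. At an unadjusted p under 0.05, 0 were higher and 3 lower, against 2.6% of all pairs, and 0 were called by DESeq2, against 0.137%. miR-182-5p had a log2 difference of -0.72 (SE 0.22) there, without overlap of the groups, and miR-183-5p of -1.04 (SE 0.31), with overlap, and neither was called. For miR-96-5p it was -0.34 (SE 0.42), also with overlap and not called. The median log2 difference of the list was -0.32 against 0.010 over all mature miRNAs. Between regions in FVB/N mice 0 were higher and 2 lower in hippocampus by edgeR, against 3.2% and 2.13% of all pairs, and DESeq2 called 3 higher and 3 lower, against 17.1% of pairs in either direction. At an unadjusted p under 0.05, 4 were higher and 4 lower, against 20.2% of all pairs. Those called lower by edgeR were miR-184-3p, at -2.98 on the log2 scale (SE 0.59, adjusted p = 0.0081, edgeR), and miR-212-3p, a miRNA induced by neuronal activity, at -1.11 (SE 0.30, adjusted p = 0.046, edgeR). In TgR mice 1 was higher and 1 lower, against 3.86% and 4.13% of all pairs, and DESeq2 also called 1 higher and 1 lower, against 10.9%. At an unadjusted p under 0.05, 5 were higher and 2 lower, against 20.1% of all pairs. miR-204-5p was higher in hippocampus by 2.09 (SE 0.29, adjusted p = 3.3e-04, edgeR) and miR-184-3p lower by a log2 difference of -1.84 (SE 0.54, adjusted p = 0.049, edgeR). miR-204-5p is also a marker of the choroid plexus. For the difference between regions in the effect of genotype, 0 of 14 were called by edgeR, against 0.533% of all pairs. At an unadjusted p under 0.05, 2 were higher and 1 lower, against 8.12%, and DESeq2 called 1, higher, against 3.47%.

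The miRNA that directs the cutting of Cdr1as showed no called difference. miR-671-5p had group means of 8.82 to 11.7 CPM and miR-671-3p of 39.9 to 52.2 CPM. In hippocampus the log2 difference of TgR from FVB/N was -0.097 (SE 0.16, adjusted p = 0.79, edgeR) for miR-671-5p and -0.28 (SE 0.17, adjusted p = 0.41, edgeR) for miR-671-3p. In the 5 comparisons 0 of these 2 arms were called by edgeR, 0 had an unadjusted p under 0.05 and 0 were called by DESeq2. Of all pairs, 0.137 to 7.99% were called by edgeR, 2.6 to 20.2% had such a p and 0.137 to 17.1% were called by DESeq2, so that 0 of 2 arms is little apart from these shares. Cdr1as and Cyrano themselves are longer than the RNAs sequenced here and were not measured.

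Some markers of other cell types moved with genotype in the hippocampus. Their lists too were chosen with earlier results known, so the calls and adjusted p-values below describe these libraries and are no independent test. Among 6 miRNAs of choroid plexus and ciliated cells, 3 were higher in TgR hippocampus, against the 1.93% of all pairs, namely miR-34b-3p by 2.57 (SE 0.28, adjusted p = 0.0072, edgeR), miR-34c-5p by 2.42 (SE 0.34, adjusted p = 0.016, edgeR) and miR-1298-5p by 2.93 (SE 0.64, adjusted p = 0.045, edgeR) on the log2 scale. At an unadjusted p under 0.05, 4 were higher and 0 lower, against 17.5% of all pairs, and DESeq2 called 4 higher and 0 lower, against 7.75%. The members not called by edgeR had overlapping groups. Of these, miR-204-5p was higher by 1.49 (SE 0.39, adjusted p = 0.078, edgeR) and miR-449a-5p had a log2 difference of -0.61 (SE 0.36, adjusted p = 0.39, edgeR). The summed level of the 6 miRNAs was 934 to 1319 CPM in FVB/N hippocampus and 5650, 1572 and 4747 CPM in TgR hippocampus replicates 1, 2 and 3. miR-375-3p was highest, at 40.1 CPM, in the replicate with the lowest of these 3 sums. The number called was 0 without FVB/N hippocampus replicate 3, and 4 without TgR hippocampus replicate 2. In the PFC 0 of the 5 that were tested were called by edgeR, against 0.137% of all pairs, with 1, lower, at an unadjusted p under 0.05, against 2.6%, and 0 called by DESeq2, against 0.137%. There the sums of 600.2 to 826 CPM in FVB/N and 651 to 896 CPM in TgR mice overlapped. The sums were thus also higher in hippocampus than in PFC in both genotypes, in the same direction as miR-7a-2-3p. In FVB/N mice miR-204-5p made up most of them, with means of 819 CPM in hippocampus and 537 CPM in PFC. Between regions in these mice, edgeR called 1 of 6, higher, against 3.2% of all pairs, and DESeq2 0, against 17.1% in either direction. At an unadjusted p under 0.05, 2 were higher and 1 lower, against 20.2%. In TgR mice each tool called 4 higher, against 3.86% by edgeR and 10.9% in either direction by DESeq2.

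Red blood cell miRNAs were lower in TgR hippocampus, with 2 of 4 called, against the 1.52% of all pairs called lower. At an unadjusted p under 0.05, 0 were higher and 4 lower, against 17.5% of all pairs in either direction. miR-144-5p fell by 1.01 (SE 0.19, adjusted p = 0.043, edgeR) and miR-451a by 0.86 (SE 0.17, adjusted p = 0.043, edgeR) on the log2 scale. The summed level was 1057 to 1173 CPM in FVB/N and 481 to 653 CPM in TgR hippocampus. The number called was 0 without FVB/N hippocampus replicate 1 or 3 or TgR hippocampus replicate 1, 1 without TgR hippocampus replicate 2 or 3, and 4 by DESeq2, against 7.75% of pairs. Between genotypes in PFC 0 of 4 were called by edgeR, 0 had an unadjusted p under 0.05 and 0 were called by DESeq2. The shares of all pairs were 0.137%, 2.6% and 0.137%. Between regions in FVB/N mice these counts were also 0, against 5.33%, 20.2% and 17.1%. In TgR mice 3 were called lower in hippocampus by each tool, against 4.13% lower by edgeR and 10.9% in either direction by DESeq2. There 4 were lower at an unadjusted p under 0.05, against 20.1%. In the PFC the 3 libraries with the highest miR-375-3p had the 3 lowest sums, 1044 CPM in FVB/N replicate 3 and 1282 and 1376 CPM in TgR replicates 1 and 3, whereas the other 4 had 1409.6 to 2192 CPM. None of the markers on either list was at 0 in any library. The exocrine pancreas miRNAs miR-216a-5p, miR-216b-5p and miR-217-5p summed to 1.68 to 6.60 CPM in the 13 libraries, and between genotypes in hippocampus 0 of the 2 tested were called by edgeR, 0 had an unadjusted p under 0.05 and 0 were called by DESeq2. Of the 4 brain miRNAs 0 were called there by edgeR, 1 had an unadjusted p under 0.05, with a higher level in TgR mice, and 0 were called by DESeq2. The shares of all pairs in that comparison were 3.44%, 17.5% and 7.75%. The part of choroid plexus and red blood cell RNA in the differences of miR-375-3p, miR-7a-5p and miR-7a-2-3p was not tested.

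**Figure D4:**
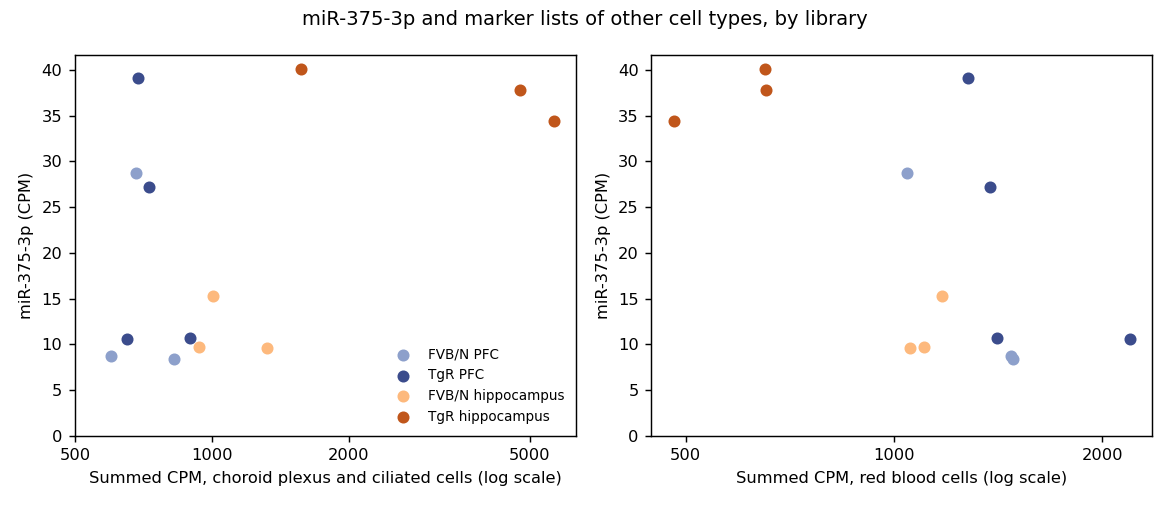
miR-375-3p (y axes, CPM) against the summed CPM (x axes, log scale) of the choroid plexus and ciliated cell miRNAs (left) and the red blood cell miRNAs (right), with 1 point per library colored by group. The TgR hippocampal points span 1572 to 5650 CPM on the left at nearly level miR-375-3p, and on the right they lie at 481 to 653 CPM, below all other libraries.

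The miRNAs whose pattern over the 13 libraries was most like that of miR-375-3p were named by Pearson's r of log2 CPM after the mean of each region was taken away, among 355 mature miRNAs. They were miR-335-3p (r = 0.80), miR-26b-5p (r = 0.80), miR-30a-3p (r = 0.79), miR-1981-3p (r = 0.75) and miR-379-3p (r = 0.74). Their changes between libraries were smaller than those of miR-375-3p. For miR-7a-5p they were miR-99a-5p (r = 0.93), miR-369-5p (r = 0.90), miR-5129-3p (r = 0.87), miR-488-3p (r = 0.84) and miR-125b-2-3p (r = 0.83). miR-99a-5p had r = 0.96 within hippocampus and r = 0.96 within PFC, and it was itself abundant, at 24604 to 58409 CPM. The libraries share their scaling and, within a region, their genotype groups, so these values describe likeness only.

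**Figure D5:**
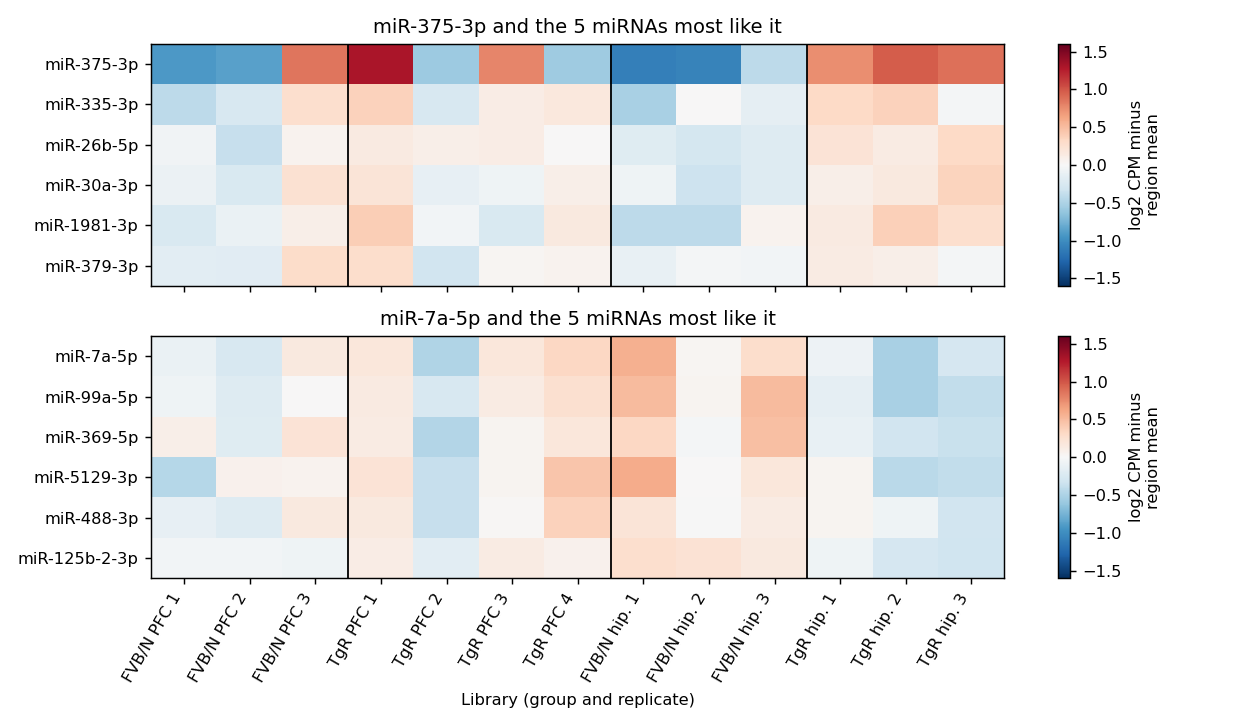
Log2 CPM minus the mean of the region (color scale) in the 13 libraries (columns, by group and replicate) for miR-375-3p and miR-7a-5p and the 5 miRNAs most like each (rows). miR-375-3p has the stronger colors of its block, with 3 high and 4 low PFC libraries, while miR-7a-5p and miR-99a-5p run nearly in step, with r = 0.93.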

How the data were processed

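Small RNA was sequenced from 13 libraries. The authors used FastQC for read quality and miRExpress for alignment to miRBase, and deposited raw counts per pair of hairpin and mature miRNA. Unlisted pairs were taken as 0. A read matching several hairpins is listed at each, so library totals hold some reads more than 1 time. The libraries held 8769851 to 18385985 counts. CPM were computed here with TMM factors over all libraries. Groups and replicate numbers came from the sample titles.

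Genotype was tested within each region, and regions and the interaction in 1 fit of 4 groups, with the quasi-likelihood test of edgeR 4.0.16 (R 4.3.3, limma 3.58.1), filterByExpr with a minimum count of 10 and Benjamini-Hochberg adjustment over all pairs. SE is the size of the log2 difference divided by the square root of F. DESeq2 1.42.0, other scalings and filters, 1 row per mature miRNA, other sample sets, a replicate block and leaving out each library were alternatives. The fits were also run on simulated counts, drawn with the same setting for the spread between libraries in every pair. In the real libraries this spread differed between miRNAs, so the simulation cannot show how the tests perform here.

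The members, marker lists and tests were chosen with earlier results of these data known. Named were all arms of the 4 hairpins, the 5 miRNAs most like miR-375-3p and miR-7a-5p (mean of at least 10 CPM, prior count 1), list members past an adjusted p of 0.05, and both arms of miR-671. miR-96-5p was named in addition, as a member of the cluster of miR-182-5p and miR-183-5p. PFC titles number animals, whereas hippocampal titles give a number only, and the extraction notes count as many mice as libraries in each group. Nothing else states that each hippocampal library is a separate mouse. The p-values therefore set a difference against the spread between libraries, which need not be the spread between mice.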

Additional observations from a re-analysis of the deposited data

Results flagged for a closer look

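In TgR PFC the 3p strands made up 1.76% of miR-7a reads in replicate 2 (95% Wilson interval 1.63 to 1.89%), far from the 0.732 to 0.900% of the other 3 libraries. The interval takes each read as independent and can be too narrow. The share of 1.76% was the 1 flagged value among 12 group values of 4 libraries examined for a sample far from the others, and chance flags about 1 in 20. The same library had the lowest depth (8769851 counts), the lowest miR-7a-5p of the group (4137 CPM) and the highest miR-7a-1-3p (68.0 CPM).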

How the results depend on the processing

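The log2 difference of miR-375-3p in hippocampus kept its direction in 13 of 13 alternatives and its call in 12, and the FVB/N region differences of miR-7a-5p and miR-7a-2-3p were called in 13 of 13. The alternatives reuse the same libraries, and the arms were chosen with their levels known. These counts therefore describe the processing only and are no independent evidence for the differences. The exception for miR-375-3p was all 13 libraries in one fit, with 0 arms called. Between genotypes in hippocampus, DESeq2 called 54 pairs and 2 arms, and testing without the filter 63 pairs and 2 arms, against 25 and 1. Between regions in FVB/N mice, DESeq2 called 91 pairs, no filter 69 and the FVB/N libraries alone 24, against 40. In TgR mice, library size only and no filter each called 2 arms, against 1. For the interaction, DESeq2 called 26 pairs and no filter 13, against 4. The causes were not tested. Library size only moved the median log2 difference of all pairs to 0.14 in the TgR region comparison and 0.15 in the interaction.

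With single libraries left out, 1 to 28 pairs and 1 to 3 arms were called between genotypes in hippocampus (1 pair without FVB/N hippocampus replicate 3), 23 to 60 pairs between regions in FVB/N mice, 28 to 62 pairs and 0 to 1 arms in TgR mice (0 without TgR hippocampus replicate 1 or TgR PFC replicate 3), and 2 to 8 pairs for the interaction. miR-375-3p ranged from -0.74 to 0.42 between regions in FVB/N mice and from 0.39 to 1.62 for the interaction.

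Same-numbered libraries did not all deviate together (r from -0.21 to 0.40 over 12 pairs). Some of these pairs join a TgR with an FVB/N library, and the regions of a mouse need not deviate together. The values therefore cannot tell whether same-numbered libraries came from the same mouse, and the main fits did not pair them. Titles were used, and for FVB/N PFC the deposited counts carry a numbering that disagrees with them. With the replicate number as a block, 9 pairs and 2 arms (miR-7a-5p added) were called between genotypes in hippocampus and 10 pairs for the interaction, and the counts of arms called in the other 3 comparisons and the interaction did not change.

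With library totals that count each mature miRNA 1 time, levels were higher in all groups, for example 19623 in place of 11955 CPM for miR-7a-5p in FVB/N hippocampus. Depth limits miR-7b-3p, at 23 to 58 counts. With 3 or 4 libraries a group, spread between libraries limits the others.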
